A study of Homo sapiens with 2 samples.

Results

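The genes described here are the replication-dependent histone genes. They were taken as every row of the count table whose GENCODE 29 symbol begins with HIST1H, HIST2H, HIST3H or HIST4H and whose class is protein-coding, which gave 71 of 58347 genes. By histone type they were 6 H1, 17 H2A, 18 H2B, 15 H3 and 15 H4 genes. The symbols placed 55 of them in the HIST1 locus on chromosome 6, 12 in HIST2 and 3 in HIST3 on chromosome 1, and 1 in HIST4. Counts on these genes came from eCLIP of U2AF2, a splicing factor, in HEL, a human erythroleukemia cell line that was grown with no treatment. In eCLIP, ultraviolet light links RNA to protein in the cells, RNase I trims the RNA, an antibody recovers the protein with its RNA, and the RNA is sequenced. The samples formed 1 group of 2 replicates, described as biological duplicates of the same line, and their cell line field holds the name U2AF2 while the source name gives HEL. Input or control libraries were not analysed here, so a level is an amount of recovered RNA and not an enrichment over the RNA present in the cells.

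Replication-dependent histone genes supply the core and linker histones that package newly made DNA, and their mRNAs accumulate in S phase. They have no introns in their usual form, and their mRNAs end after a conserved stem-loop, bound by SLBP, without a poly(A) tail. U2AF2, as the larger partner in the U2AF heterodimer, binds the pyrimidine tract that lies before the AG of a 3' splice site, and it has also been found on mRNAs of intronless genes. The genes of a type occur in many copies, and most H4 copies encode the same protein with different codons.

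Gene counts totalled 995428 in replicate 1 and 1350116 in replicate 2. At that depth 3 counts, the upper limit that a count of 0 allows, correspond to a CPM (counts per 1e+06 scaled gene counts) of 2.96 and 2.26. Reads on no annotated feature were 97.3% and 97.4% of uniquely mapped reads, and multimapping reads were 22.1% and 20.7% of all reads. Which strand of a read was matched to a gene is not given in the sources used here. A count below can therefore stand for RNA of the named gene or, if the opposite setting was used, for RNA of the strand facing it. All intervals and limits cover counting error only.

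The 71 histone genes held 544 counts in replicate 1 and 667 in replicate 2. This was 0.0547% of gene counts in replicate 1 (exact 95% binomial interval 0.0502 to 0.0594) and 0.0494% in replicate 2 (0.0457 to 0.0533), a mean of 0.0520% ± 0.00371 (SD, n = 2). The histone genes make up 0.0503% of the exon bases and 0.122% of the genes in the table, so their share of counts was close to their share of exon bases. The counts were concentrated in few genes. HIST1H4I alone held 39.2% and 38.2% of the histone counts, and HIST1H4I, HIST1H2BN and HIST1H2AK together held 74.4% and 76.0%. Without HIST1H4I the mean share was 0.0319%.

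At least 10 counts in each library were reached by 6 histone genes, or 8.45%. Among all protein-coding genes 24.8% reached that minimum, among other single-exon protein-coding genes 11.8%, and among multi-exon protein-coding genes 25.6%. The minimum is not scaled for length, and the histone models are shorter. Median exon lengths were 509 bases for histone genes, 4232 for all protein-coding genes, 1444 for other single-exon and 4427 for multi-exon genes. A single-exon gene here is one whose merged exons leave no gap. Of the histone genes, 58 are single-exon in this sense and 4 of these (6.90%) reached the minimum, while 13 have models with gaps. The 6 were HIST1H4I, HIST1H2BN, HIST1H2AK, HIST2H2AB, HIST1H2BE and HIST1H3A. Of the other members, 25 had no count in either library, 13 had counts in 1 library only, and 27 had at least 1 count in each. The median log2 CPM (prior count 2) was 1.37 over the histone genes, 1.78 over all protein-coding genes and 0.77 over other single-exon genes. Counts pooled over both libraries were 17.4 per kb of exon on the histone genes, 12.2 on all protein-coding genes and 16.6 on other single-exon genes. Without HIST1H4I the histone value was 10.9 per kb. Log2 CPM is not scaled for length either. Median CPM per kb of exon was 0.988 for the histone genes, 0.383 for all protein-coding genes and 0 for other single-exon genes. Median counts over both libraries were 2, 4 and 0 in the same order, so these medians lie near the limit of this depth.

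**Figure D1:**
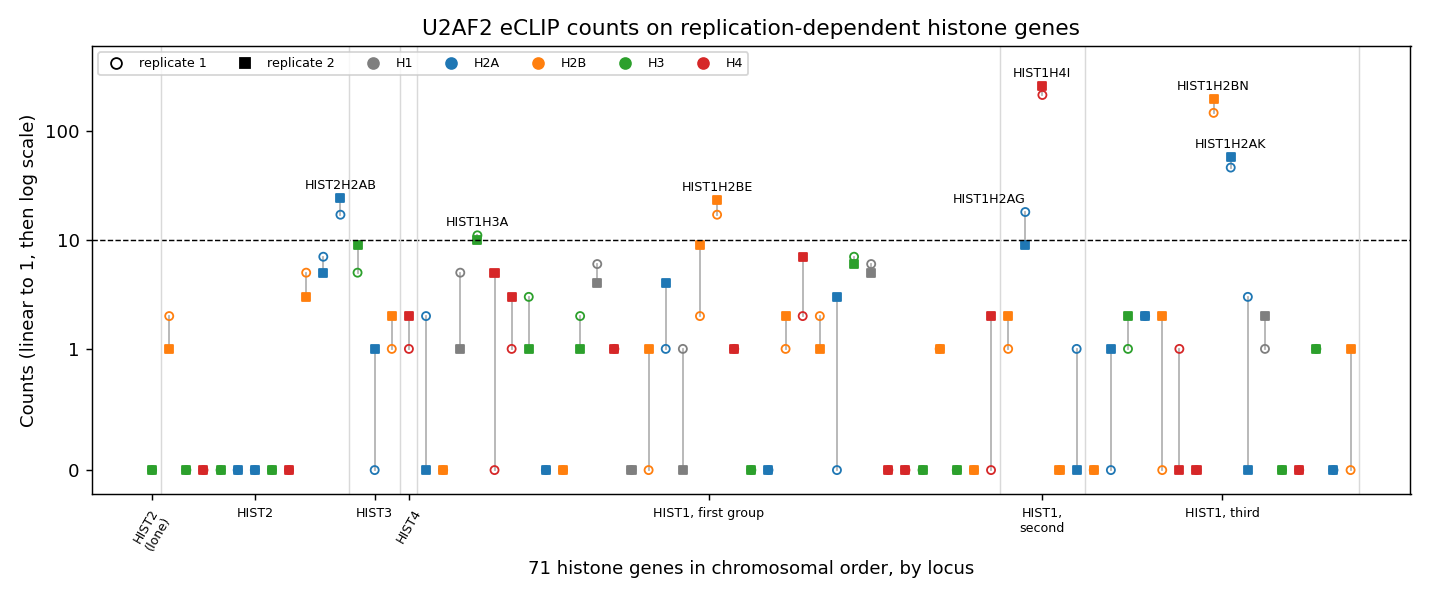
Counts of each of the 71 histone genes, in chromosomal order and split by locus (the HIST1 genes into 3 groups by distance), on a vertical axis that is linear to 1 and logarithmic above. Open circles are replicate 1 and filled squares replicate 2, colours give the histone type, the grey line joins the replicates of a gene, and the dashed line marks 10 counts: 6 genes reach it in both libraries, led by HIST1H4I with 213 and 255 counts, while 25 genes sit at 0 in both.

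HIST1H4I, a histone H4 gene (chr6:27138588-27139881, plus strand), had 213 counts in replicate 1 and 255 in replicate 2, or 201 ± 13.1 CPM (SD, n = 2). It was the highest member in both libraries. Its GENCODE 29 model is a single exon of 1294 bases, in which the coding bases run from position 722 to 1030, counted from the start of the model. The RefSeq start of the same gene lies at position 695, so the model extends 694 bases upstream of it. No annotated gene lies opposite its exon. The nearest gene on the other strand was HIST1H2BJ, an H2B gene 5837 bases away with 1 and 2 counts. HIST1H2AG, an H2A gene 3296 bases to its left on the same strand, had 18 and 9 counts, and HIST1H2AH, 7247 bases to its right, had 1 and 0.

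HIST1H2BN, an H2B gene (chr6:27837760-27865798, plus strand), had 146 and 194 counts, or 145 ± 1.25 CPM. HIST1H2AK, an H2A gene (chr6:27837947-27838339, minus strand), had 46 and 58 counts, or 44.6 ± 1.27 CPM. All 393 bases of HIST1H2AK lie under an exon of HIST1H2BN on the other strand, so the 2 counts were taken over a shared stretch of the genome. The HIST1H2BN model is far longer than a histone mRNA, with 5477 exon bases and 3 gaps. Its first exon block of 1723 bases holds HIST1H2AK at positions 188 to 580, the RefSeq start at 810, the coding bases at 903 to 1280 and the stem-loop at 1331 to 1346. The table gives 1 count per gene, so where within a model the reads fell cannot be read from it.

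**Figure D2:**
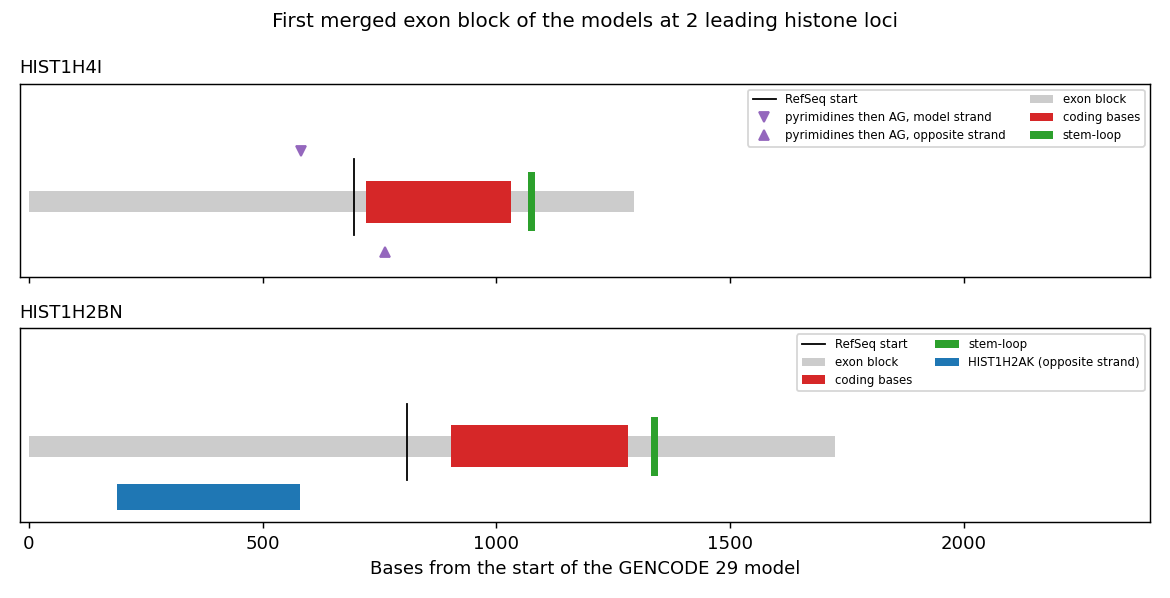
Maps, to scale, of the first merged exon block of HIST1H4I and HIST1H2BN in GENCODE 29, in bases from the start of the model. The grey bar is the exon block, red the coding bases, green the stem-loop, blue HIST1H2AK on the opposite strand, the black line the RefSeq start, and purple triangles mark a run of 10 pyrimidines followed by AG. Each model begins upstream of the RefSeq start, by 694 bases in HIST1H4I and 809 in HIST1H2BN.

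HIST2H2AB, an H2A gene on chromosome 1 (chr1:149887524-149887916, minus strand), had 17 and 24 counts, or 17.4 ± 0.897 CPM. The gene BOLA1 starts on the other strand and covers 27 of its 393 bases. BOLA1 itself had 104 and 122 counts, or 97.3 ± 7.73 CPM. HIST2H2AC, another H2A gene 159 bases away and facing it tail to tail, had 7 and 5 counts, and HIST2H2BE, an H2B gene 871 bases away on the strand of HIST2H2AB, had 5 and 3.

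HIST1H2BE, an H2B gene (chr6:26172059-26184655, plus strand), had 17 and 23 counts, or 17.1 ± 0.364 CPM. Its model also starts far from the histone mRNA, 11.7 kb upstream of the RefSeq start, and 730 of its 2585 exon bases lie under the antisense gene AL353759.1. AL353759.1 had 53 and 56 counts, or 47.3 ± 7.23 CPM. The span of the same antisense gene covers 375 exon bases of HIST1H2BD, an H2B gene with 2 and 9 counts (4.38 ± 3.39 CPM). HIST1H2BD was below 10 counts in both libraries.

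HIST1H3A, an H3 gene (chr6:26020490-26020900, plus strand), was just inside the minimum with 11 and 10 counts, or 9.20 ± 2.36 CPM. HIST1H2AG was just outside it with 18 and 9 counts, or 12.3 ± 7.79 CPM. The next members were HIST3H3, an H3 gene expressed mainly in testis, with 5 and 9 counts, HIST1H3E with 7 and 6, HIST2H2AC with 7 and 5, the linker histone genes HIST1H1D with 6 and 5 and HIST1H1C with 6 and 4, and HIST1H2BD with 2 and 9. HIST2H2BE had 5 and 3 counts and HIST1H4E had 2 and 7. These values lie within a few counts of the limit that a count of 0 allows, and their order is not resolved at this depth.

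Gene lengths differ among the histone models, so levels between genes were compared per kb of exon. HIST1H4I was highest at 156 ± 10.1 CPM per kb (SD, n = 2), followed by HIST1H2AK at 113 ± 3.23 and HIST2H2AB at 44.4 ± 2.28. In each library these 3 stood in that order. HIST1H2BN followed at 26.5 ± 0.228 and HIST1H3A at 22.4 ± 5.75, and the values of these neighbours overlapped between libraries. HIST2H2AC was at 13.7 and HIST3H3 at 12.2, which overlapped too. HIST1H2BE, with its long model, was at 6.60 ± 0.141 CPM per kb.

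Sequences from the GENCODE 29 transcripts (GRCh38) show how far the H4 copies can be told apart by short reads. The first 90 coding bases are printed 5' to 3' on the coding strand, with bases that differ from HIST1H4I in capitals.
HIST1H4I (chr6:27139309-27139398, plus strand): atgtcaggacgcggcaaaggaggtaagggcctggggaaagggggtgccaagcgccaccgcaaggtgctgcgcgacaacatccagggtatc
HIST1H4A (chr6:26021679-26021768, plus strand): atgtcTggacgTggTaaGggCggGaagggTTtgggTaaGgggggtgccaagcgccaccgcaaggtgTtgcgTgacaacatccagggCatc
HIST2H4A (chr1:149832685-149832774, plus strand): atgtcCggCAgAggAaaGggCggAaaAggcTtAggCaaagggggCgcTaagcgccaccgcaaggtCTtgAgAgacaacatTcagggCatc
HIST2H4B (chr1:149861042-149861131, minus strand): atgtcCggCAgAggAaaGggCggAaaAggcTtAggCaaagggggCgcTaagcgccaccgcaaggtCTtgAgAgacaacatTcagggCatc
HIST1H4A differs from HIST1H4I at 13 of these bases and HIST2H4A at 20, while HIST2H4A and HIST2H4B carry the same letters. Over the whole coding sequence of 14 H4 genes of equal length, the 91 pairs were 79.0% to 100% identical, with a median of 83.8%, and 2 pairs were identical. HIST1H4I was 81.6% to 90.3% identical to the other genes. HIST1H4A had 0 and 5 counts, and HIST2H4A and HIST2H4B had none in either library.

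Sequence sharing was measured over every gene as the share of 50-base stretches of its transcripts, on either strand, found in no transcript of a gene elsewhere. All 50-base stretches were unique in 31 histone genes, at least 50% were in 58, and none were in 4. HIST1H4I was at 99.4%, HIST1H2BN at 95.7% and HIST1H2AK at 91.9%. The 13 genes under 50% held 3 counts in each library in all, none of them reached 10 counts, and 10 of the 13 were at 0. They include the duplicated HIST2 genes HIST2H3A, HIST2H3C, HIST2H4A, HIST2H4B, HIST2H2AA3 and HIST2H2AA4, each at 0 in both libraries. Shared sequence did not coincide with all zeros: of the 25 genes at 0, 15 had at least 50% of their stretches unique. Among the 58 genes above 50%, 6 reached the minimum (10.3%). Across the 71 genes, Spearman's rho between the unique share and the counts was 0.147, as a description over genes of the same 2 libraries.

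**Figure D3:**
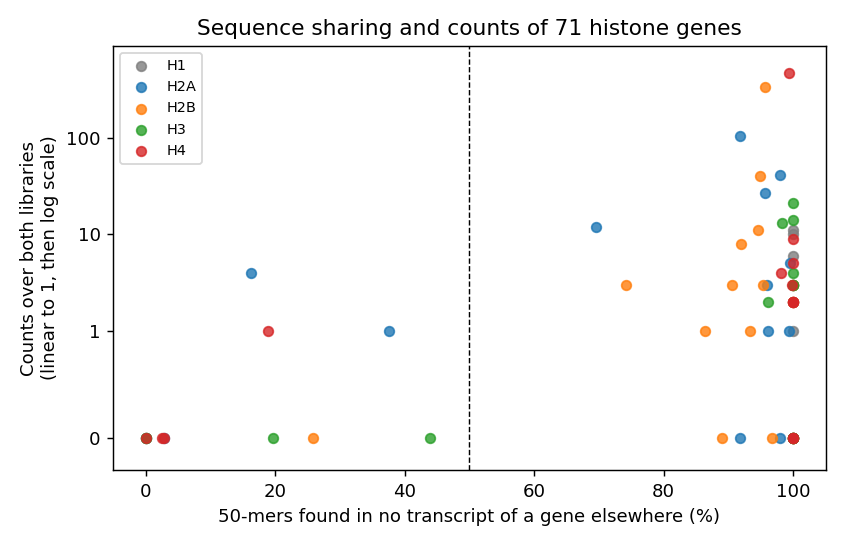
Counts over both libraries (vertical axis, linear to 1 and logarithmic above) against the percent of 50-base stretches found in no transcript of a gene elsewhere, with 1 point for each of the 71 histone genes and colours for the histone type. The dashed line is at 50%; the 13 genes left of it have at most 4 counts, and the points at 100% and 0 counts lie on top of each other.

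By histone type, the genes reaching 10 counts in each library were 0 of 6 for H1, 2 of 17 for H2A, 2 of 18 for H2B, 1 of 15 for H3 and 1 of 15 for H4. Genes at 0 in both libraries were 1, 5, 5, 8 and 6 in the same order. H1 genes encode the linker histones, and H1 had 19 and 12 counts in all. Its highest member was HIST1H1D, at 7.28 CPM per kb, and HIST1H1T, a testis gene, was at 0. The H2A genes had 97 and 107 counts, with HIST1H2AK highest. The H2B genes had 178 and 242 counts, of which HIST1H2BN held 146 and 194. The H3 genes had 30 and 30 counts, with HIST1H3A highest, and the H4 genes 220 and 276, of which HIST1H4I held 213 and 255. Beyond its leading gene, H4 therefore had 7 and 21 counts on 14 genes.

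Median levels per type were close to the limit of the depth. They were 3.11 CPM per kb for H1, 1.28 for H2A, 0.709 for H2B, 0 for H3 and 0.484 for H4. Single libraries gave 1.69 to 4.54 for H1, 0.593 to 0.841 for H2A, 0.449 to 0.770 for H2B and 0 to 0.584 for H4. H4 had the highest pooled density, at 34.4 counts per kb, and a median near 0, since 1 gene carried the type. H3 had the lowest pooled density, at 4.23 counts per kb, against 7.54 for H1 and 18.8 for H2A. Genes of a type share sequence and are not replicates, so no test was made between types.

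**Figure D4:**
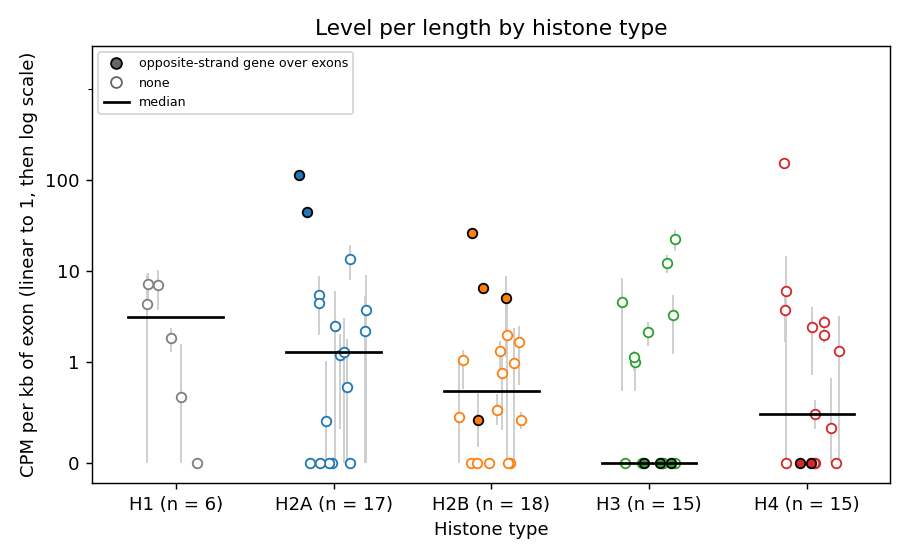
Level in CPM per kb of exon (vertical axis, linear to 1 and logarithmic above) of each histone gene by type, as the mean of 2 libraries with the SD as a grey bar (bars reaching below 0 are drawn to 0). Filled points have exons overlapped by a gene of the opposite strand, open points do not, and the black line is the median of the type. In H2A, H2B and H3 a few genes lie far above the median, and in H4 HIST1H4I, at 156, lies far above all other genes of its type.

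By locus, HIST1 held 506 and 620 of the histone counts on 55 genes, with 5 at the minimum and 17 at 0. HIST2 held 31 and 33 counts on 12 genes, with 1 at the minimum, HIST2H2AB, and 8 at 0. The median share of unique 50-base stretches was 11.3% in HIST2. HIST3 had 6 and 12 counts on 3 genes, of which HIST3H3 held 5 and 9, and HIST4H4, the single HIST4 gene, had 1 and 2. Median levels were 1.20 CPM per kb in HIST1, 0 in HIST2, 0.528 in HIST3 and 0.484 in HIST4, and single libraries gave 0.826 to 1.16 in HIST1 and 0.418 to 0.841 in HIST3.

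Within HIST1 the genes fell into 3 groups along the chromosome, taking members less than 300 kb apart together. The first group of 34 genes had 72 and 91 counts, or 5.43 pooled counts per kb, and 2 genes at the minimum. The second, of 5 genes, had 233 and 266 counts, or 94.8 per kb, and 1 gene at the minimum, HIST1H4I. The third, of 16 genes, had 201 and 263 counts, or 36.0 per kb, and 2 genes at the minimum, the overlapping pair HIST1H2BN and HIST1H2AK. The density of a group followed its leading locus and not its number of genes.

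A gene on the opposite strand covered exon bases of 11 histone genes, and 4 of these (36.4%) reached 10 counts in each library. Of the 60 without one, 2 (3.33%) did, HIST1H4I and HIST1H3A. The same split gave 42.0% and 12.3% among all protein-coding genes, and 25.3% and 6.94% among other single-exon genes. A higher share beside an opposite-strand gene was thus a feature of the whole table, and the 4 histone genes include both members of one overlapping pair. Pooled counts were 26.4 per kb for the 11 genes and 13.6 per kb for the 60. A few genes carried both values. Of the 230 and 309 counts on the 11 genes, HIST1H2BN held 146 and 194 and HIST1H2AK 46 and 58. Of the 314 and 358 counts on the 60, HIST1H4I held 213 and 255. Among the 11, the 6 with histone partners only had 34.2 per kb, and the 5 with another kind of partner had 12.7.

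The medians did not order the groups in the same way. The median level was 0.427 CPM per kb with an opposite-strand gene and 0.998 without, a difference of -0.571 that turned to 4.03 when genes with histone partners alone were left out, to 15.5 among genes with at least 50% unique stretches, and to 0.170 in replicate 1 alone. In 6 of the 11 genes the partner was another histone gene: the pair HIST1H2BN and HIST1H2AK, and HIST2H4A, HIST2H3C, HIST2H3A and HIST2H4B, which pair among themselves and were at 0. In the other 5 the partner was another kind of gene: BOLA1 for HIST2H2AB, AL353759.1 for HIST1H2BE and HIST1H2BD, FCGR1A for HIST2H2BF (2 and 1 counts, against 2 and 0 on FCGR1A), and AC246680.1 for HIST2H3PS2 (0 counts, against 2 and 1). The median of these 5 was 5.02 CPM per kb. The part of the partners' RNA in the counts of the histone genes was not tested.

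**Figure D5:**
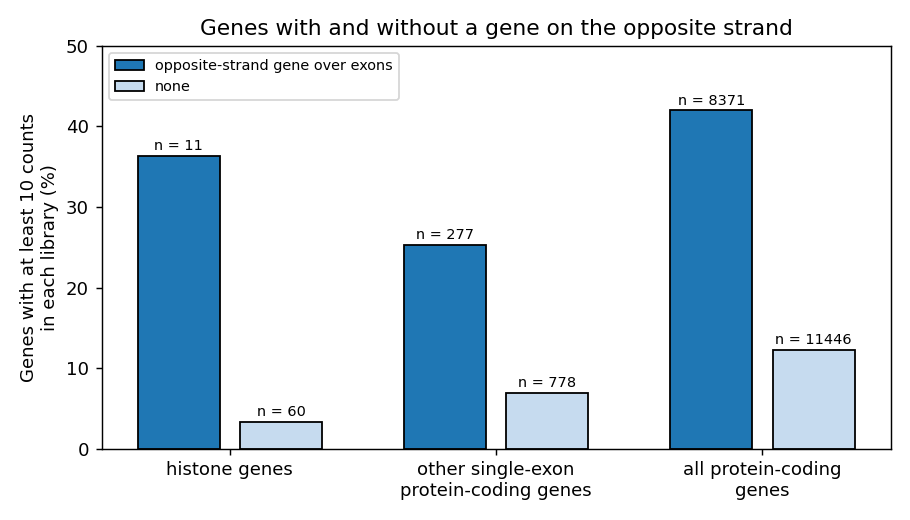
Percent of genes that reach 10 counts in both libraries, split into those whose exons a gene of the opposite strand overlaps (dark bars) and the rest (light bars), with the number of genes above each bar. The bars are 36.4% and 3.33% for the histone genes, 25.3% and 6.94% for other single-exon protein-coding genes, and 42.0% and 12.3% for all protein-coding genes.

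The arrangement of the 60 genes without an overlapping partner was described by the nearest gene on the other strand. In 26 it lay within 1 kb head to head, as in the divergent H2A and H2B pairs that share a promoter region. None of these 26 reached 10 counts in both libraries, although HIST1H2AG had 18 in replicate 1, and their pooled density was 3.39 counts per kb. In 4 it lay within 1 kb tail to tail, with 0 at the minimum and 9.29 per kb. In 30 no such gene lay within 1 kb, with 2 at the minimum and 22.5 per kb, of which HIST1H4I is part. The share at the minimum was 3.33% over all 60 genes, and 6.94% over other single-exon genes without an opposite-strand gene. Against shares this low, 0 of 26 and 0 of 4 do not set these arrangements apart.

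Overlap on the same strand went with counts of 0. HIST1H3D and HIST1H2AD lie under exons of AL031777.3 over 100% and 98.0% of their bases, HIST2H3PS2 under AC239798.4 over 99.5%, and HIST1H2AM under HIST1H3J over 88.0%. Each of these 4 had 0 counts in both libraries, and HIST1H3J, which shares 44.6% of its bases, had 1 and 1. The same was seen over the table: of 793 genes wholly under exons of a gene on the same strand, 2.02% had any count and 0.504% reached 10 in each library. Of 748 genes wholly under exons on the opposite strand, 68.2% had a count and 41.3% reached 10. A 0 on these 4 histone genes is therefore no measure of RNA from them.

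The annotated model also differed from the histone mRNA in some genes. For 61 histone genes a RefSeq start was matched, and in 5 of them the GENCODE 29 model begins more than 100 bases upstream of it: HIST1H2BE, HIST1H2BN (809 bases), HIST1H4I (694), HIST1H3G (402) and HIST1H4H (104). Of these 5, 3 reached 10 counts in each library, and they held 376 and 474 of the histone counts. Of the other 56, 3 did, with 160 and 184 counts. Pooled densities were 61.0 and 6.73 counts per kb. The higher density rested on HIST1H4I and HIST1H2BN: without them the other 3 long models had 17 and 25 counts, or 5.87 per kb, with HIST1H3G at 0 in both libraries and HIST1H4H at 0 and 2. Models of 33 genes hold the coding bases and stop codon alone, with 3 at the minimum, and 38 hold further bases, also with 3. Whether the counts of the long models lie upstream of the histone mRNA was not tested, since the table holds no positions.

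The stem-loop that ends histone mRNAs was searched in the transcripts as a 6-base stem that begins with GG, a 4-base loop that begins with TT and a perfect reverse complement of the stem. It was found in 30 of the 71 models, including 3 of the 6 at the minimum. HIST1H2AK, HIST2H2AB and HIST1H3A have models without bases after the stop codon and so cannot hold it. It is shown for the top genes with stem, loop and stem in capitals, since it marks the end of the mature mRNA within the model.
HIST1H4I stem-loop (chr6:27139649-27139674, plus strand): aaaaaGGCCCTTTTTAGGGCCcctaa
HIST1H2BN stem-loop (chr6:27839085-27839110, plus strand): ccaaaGGCTCTTTTCAGAGCCactca

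A run of at least 10 pyrimidines followed by AG is the general form of the sequence before a 3' splice site. It was searched on both strands of the longest coding transcript of each gene, which can be shorter than the merged exons. It occurred in 9 histone genes on the model strand and in 13 on the opposite strand. Cut into windows of 300 bases, 4.79% of 188 histone windows held it on the model strand and 5.85% on the opposite strand. The shares were 6.35% and 6.80% of 6147 windows of other single-exon genes, and 8.87% and 8.90% of 27305 RefSeq promoters of the same length. In the 61 RefSeq promoters of histone genes the shares were 6.56% and 8.20%. Runs found in any transcript are printed below for the 3 leading models that hold one, with the pyrimidines and the AG in capitals. A match is a description of the letters and not a binding site.
HIST1H4I, model strand (chr6:27139154-27139183, plus strand): gcacagcaggcctgTTTCCCTTTTAGgtcc
HIST1H4I, opposite strand (chr6:27139335-27139364, minus strand): tggcgcttggcaCCCCCTTTCCCCAGgccc
HIST1H2BN, model strand (chr6:27854788-27854817, plus strand): ttctaagggatgCTTCTCCCTTTCAGctac
HIST1H2BN, opposite strand (chr6:27854196-27854225, minus strand): atacattgtttaaTCTTTTCCTCTAGttct
HIST1H2BE, model strand (chr6:26172665-26172694, plus strand): ggagctggcaCTTCCCCCTTCTCTAGtagc
HIST1H2BE, opposite strand (chr6:26184621-26184650, minus strand): gaagagggttttaTTTTTTCCTTTAGaacc
The HIST1H4I run on the model strand lies upstream of the RefSeq start, and the run on the opposite strand lies in the coding bases printed above. The HIST1H2BN runs lie in later exon blocks, downstream of the histone coding sequence. In the longest coding transcripts, TTTTT occurred on the model strand of 25 histone genes and on the opposite strand of 37. It was in 37.8% and 33.5% of the histone windows, against 33.3% and 28.8% of windows of other single-exon genes. In RefSeq promoters the difference was larger: TTTTT was in 57.4% and 60.7% of the 61 histone promoters and in 24.7% and 25.2% of all promoters. Promoter windows of divergent histone genes can hold the same bases read from either strand, as for HIST1H2BC and HIST1H2AC, 218 bases apart. The 61 windows are therefore not separate stretches, here and for the pyrimidine runs above. No count of this table is assigned to a promoter.

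The libraries were compared gene by gene by an exact binomial test (two-sided, conditional on the sum of both counts) at the scaled library sizes. P-values were adjusted by the Benjamini-Hochberg method over all genes reaching 10 counts in both. Of 8983 genes tested, 0.612% were called at an adjusted p of 0.05. Among the 6 histone genes tested none was called, and none had an unadjusted p below 0.05, against 783 of the 8983 genes tested. With 6 genes, these zeros do not set the histone genes apart from the table. The exact test gave an adjusted p of 0.899 for HIST1H4I and 0.973 for HIST1H3A. No histone gene was called with other scalings or with lower count minimums either, among 11 tested at 5 counts and 46 tested with any count. Of the 46, 25 had 1 to 3 counts in total, too few for this test to call any difference. Over the table, 52 of 11877 genes were called at 5 counts and 78 of 30752 with any count. The test compares these libraries and takes in counting error alone. Over the 71 genes, Spearman's rho between the libraries was 0.733, as a description.

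Genes that act on histone mRNA were read from a list of 16. Of these, 4 (25%) had at least 10 counts in each library and 3 were at 0, CSTF2, ZNF473 and SNRPB, with a median log2 CPM of 2.09. NCBP2, the small subunit of the nuclear cap-binding complex, was highest with 195 and 244 counts, or 188 ± 6.37 CPM, and has the antisense gene NCBP2-AS1 over its exons. NCBP1, the large subunit, had 45 and 74 counts, or 50.1 ± 7.95 CPM. SRRT, which binds the cap-binding complex, had 38 and 32, or 30.8 ± 9.52 CPM. SLBP, the stem-loop binding protein, was below the minimum with 9 and 14.

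The 12 replication-independent histone variants and linker histones, most of which have introns and poly(A) tails, included 3 (25%) at the minimum, with a median log2 CPM of 2.25. H3F3B, which encodes H3.3, had 113 and 118 counts, or 100.3 ± 16.1 CPM, and overlaps UNK on the other strand. H2AFY, which encodes macroH2A1, had 45 and 52, or 41.8 ± 3.76 CPM, and has the antisense genes AC026691.1 and C5orf66 over its exons. H1FX, an intronless linker histone gene with the antisense gene H1FX-AS1, had 22 and 29, or 21.8 ± 0.0645 CPM. CENPA, the centromeric H3, and H3F3C were at 0. The 10 histone chaperones included 4 (40%) at the minimum, with a median log2 CPM of 2.52. NASP, a chaperone of H3 and H4, had 54 and 88 counts, or 59.8 ± 9.11 CPM, and ASF1A, another, had 53 and 74, or 54.0 ± 2.36 CPM, with MCM9 on the other strand. RBBP4, a subunit of the CAF-1 complex, had 17 and 37, with SYNC on the other strand, and CHAF1B, another subunit, had 2 and 0. These shares stand beside 24.8% for all protein-coding genes, and none of the 11 of 38 list genes with enough counts for the test between libraries was called.

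Of 4 members expressed mainly in testis, HIST3H3, HIST1H2AA, HIST1H2BA and HIST1H1T, none reached the minimum and 2 were at 0. Erythroid and megakaryocytic markers of HEL were low. The transcription factor gene GATA1 had 6 and 14 counts and the gamma-globin gene HBG2 had 7 and 8. KLF1 had 0 and 4, TFRC, ITGA2B and ITGB3 each had 0 and 2, GP9 and HBG1 each had 0 and 1, and PF4 was at 0, so none of these reached the minimum. Counts of crosslinked RNA are no direct measure of expression, and these markers do not test the cell identity.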

How the data were processed

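The deposited file gives whole-number raw counts of reads by gene for each library. Per the submitters' processing notes, the authors used cutadapt, STAR 2.7.0f and GRCh38.p10. The counting step, its strand setting, its annotation and the treatment of PCR duplicates are not given in the sources used here. If PCR copies remain, intervals from counting are too narrow, and strand decides which of 2 overlapping genes receives a read. Rows that tally reads on no feature, ambiguous, multimapping or unmapped reads name no gene and stayed out of library sizes; no-feature reads were 97.3% and 97.4% of uniquely mapped reads.

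Rows were joined to GENCODE 29 on the Ensembl identifier stripped of its version, which gave a model to 58039 of 58347 rows. The versioned identifiers of all 71 histone genes, and of 55720 rows in all, were those of GENCODE 29. TMM scaling of library sizes (edgeR 4.0.16, R 4.3.3) gave factors of 1.02 and 0.984. CPM per kb divides CPM by the merged exon length. With 1 group no replicated test between groups exists, so groups of genes are described by counts and medians. The binomial test between libraries was run on simulated counts with counting error alone, so its behaviour with PCR copies or further variation between replicates was not tested. Motifs and 50-base stretches were searched in GENCODE 29 transcripts with numba 0.67.0 in Python 3.11.15, with tables and tests in pandas 2.3.3, scipy 1.17.1 and numpy 2.4.6 and plots in matplotlib 3.10.9. RefSeq starts came from RefSeq promoter windows of 300 bases (GRCh38.p14), matched for 61 histone genes.

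The members and gene lists were chosen with earlier results of these data known. Named were the 15 members with the highest mean log2 CPM, the highest and lowest per kb in each type, the highest in HIST2, HIST3 and HIST4, members with an opposite-strand gene and at least 10 counts in either library, and in each other list the 3 highest genes and the lowest. Other members and neighbours named for their position, sequence or overlap were added after their values were seen. Alternatives were other library scalings (DESeq2 1.42.0 size factors, total counts), count minimums, prior counts, lengths, partner definitions and single libraries. A gene of the list of HEL markers is not reported here.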

Additional observations from a re-analysis of the deposited data

How the results depend on the processing

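No paired analysis was possible because the samples form 1 group. The number of histone genes at the count minimum was 6 at 10 counts, 11 at 5, 3 at 20 and 33 at 1, and 6 to 7 with a single library. The median log2 CPM of 1.37 became 0.10 with a prior count of 0.5, 4.90 among genes at the minimum and 1.53 among genes with at least 50% unique stretches, and 1.30 to 1.43 with a single library. The share of gene counts fell from 0.0520% to 0.0319% without HIST1H4I and was 0.0494% to 0.0547% in single libraries. Medians per kb moved to 2.22 for H2A, 1.12 for H3 and 2.00 for H4 among genes with at least 50% unique stretches, and to 0.377 for H2B per kb of gene span. Single libraries gave 1.69 to 4.54 for H1, 0.593 to 0.841 for H2A, 0.449 to 0.770 for H2B, 0 to 0.584 for H4, 0.826 to 1.16 for HIST1 and 0.418 to 0.841 for HIST3. The difference of medians by opposite-strand gene, -0.571, reversed to 4.03 without genes whose partners are histone genes only and to 15.5 among genes with at least 50% unique stretches, and was -0.533 to 0.170 in single libraries. The difference in the share at the minimum from other single-exon genes, -3.30 percentage points, was -0.336 at 5 counts, -4.86 with single-exon histone genes only and -5.39 to -2.18 in single libraries. The cause was not tested. Of the values from both libraries, the other 44, and 32 of named genes, kept their direction and stayed within the spread between the libraries or, for counts, within 1.5 times. With 2 libraries a single one always lies within that spread of the mean of a gene, so single libraries do not test named genes. Their CPM moved by over 1.5 times for HIST1H2AG (12.3 to 6.78 without replicate 1), HIST1H2BD (4.38 to 6.78 without replicate 1 and 1.98 without replicate 2), HIST2H2BE (to 2.26 without replicate 1) and HIST1H4E (3.62 to 1.98 without replicate 2). The uniqueness settings, the single-exon setting, and the count without HIST1H2BN and HIST1H2AK (4 genes), were chosen after seeing the data. The uniqueness settings used transcript sequences, and the planned setting with a genome was not run. With 25 histone genes at 0 and 25 with 1 to 3 counts, most levels are at or under the limit of this depth.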

Other observations

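A few histone pseudogenes in the same loci had more counts than the histone genes next to them, with no scaling for length. Of 19 histone pseudogenes, 3 (15.8%) had at least 10 counts in each library and 10 were at 0. The share at that minimum was 15.4% over all genes of the table and 7.08% over all pseudogenes. Sequence sharing of the pseudogenes was not measured. HIST2H2BC had 74 and 91 counts, or 70.8 ± 3.27 CPM (SD, n = 2), and overlaps HIST2H2BD, which had none, on the other strand. Its counts exceeded those of any HIST2 histone gene, but its level per kb of exon was not compared with theirs. HIST2H2BC spans chr1:149844498-149850937, while HIST2H2AB, the highest HIST2 histone gene, has 393 exon bases and 44.4 CPM per kb. The histone gene nearest to HIST2H2BC is HIST2H2AA4, at 0 counts, of whose 50-base stretches only 2.91% are unique. HIST1H1PS1 had 37 and 41 counts, or 33.7 ± 4.03 CPM. It lies 206 bases downstream of HIST1H3D (0 counts) on the opposite strand, with AL031777.3 opposite to it. HIST1H3D lies under same-strand exons of AL031777.3 over 100% of its bases, so its 0 is no measure of its RNA. HIST1H2APS3 had 13 and 25 counts, or 15.8 ± 4.22 CPM, and lies 1012 bases downstream of HIST1H1D on the opposite strand. HIST1H4PS1, just under the minimum with 6 and 20 counts (10.5 ± 6.45 CPM), lies 104 bases downstream of HIST1H2BL, which had 0 counts, also on the opposite strand. These 4 pseudogenes each lie opposite in strand to the nearest histone gene, and are among 10 that do so of the 17 histone pseudogenes on a chromosome with a histone gene. Of those 10, 4 had no counts.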
